A study of Rattus norvegicus with 15 samples.

Results

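The transcripts described here are 9 of the 22468 genes in the deposited expression table, picked by gene symbol: the red cell membrane genes Slc4a1, Epb42, Ank1, Sptb and Rhag, the gene Tmcc2 listed with them, and the erythroid regulators Gata1, Klf1 and Epor. They were followed through 15 bulk RNA-seq libraries of bone from female Sprague-Dawley rats, 3 libraries in each of 5 groups. The groups SYT, YJT and YJZYT are labelled as ovariectomized and carry those treatment names as their condition. The Model group is labelled as ovariectomized with osteoporosis, and the Blank group is labelled as having had no treatment. Removal of the ovaries is a common rat model of bone loss after the menopause, and the series title names a herbal capsule, Zhuanggu Zhitong, as the treatment studied. The labels used here give no age, dose, duration or bone, they do not say what SYT, YJT and YJZYT stand for, and no group is labelled as a sham operation. Nothing says that the 3 libraries of a group came from separate animals, so p-values reflect library-to-library spread, which may be technical.

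Red cells form in the marrow spaces of bone, which is why whole bone contains their transcripts. The red cell membrane is held in shape by a spectrin network under the lipid bilayer, which ankyrin ties to the anion exchanger band 3. Erythropoietin acting through its receptor keeps early erythroid cells alive, and the transcription factors Gata1 and Klf1 switch on the genes for haemoglobin, heme synthesis and the membrane as the cells mature. In bulk tissue, fewer erythroid cells and less RNA per cell cannot be told apart, and this holds for every level below.

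Library totals ran from 64472700 to 74255667 counts. The 9 listed haemoglobin genes took 3.74% to 17.1% of counts and the 37 mitochondrial genes 6.07% to 25.5%, the highest of which was SYT replicate 1. All 9 genes passed the filter on low counts that left 17657 genes for testing. Each symbol had 1 entry in the table. Ank1 is overlapped on the opposite strand by LOC100910418, which averaged 1.55 FPKM, and whether counting used strand is not stated. A further entry, LOC108348091 (ENSRNOG00000025534, chromosome X, 15378789 to 15382066, + strand), carries the description of erythroid transcription factor, as Gata1 does. It averaged 19.8 FPKM and stood at 0.738 to 1.14 times Gata1 in each library, so reads may be divided between both entries and the level of Gata1 is uncertain. The summed entries averaged 39.0 FPKM, with a range over libraries of 10.4 to 70.5 FPKM.

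Upstream sequences are shown because Gata1 and Klf1, 2 of the 9 genes, encode transcription factors that bind short DNA words. Binding to these windows was not tested. RefSeq's table on GRCr8 held 7 of the 9 genes, and in each the 250 bases before the annotated start were searched on both strands. The GATA word, which is GATA with an A or a T before it and an A or a G after it, was found in 5 of the 7 windows, against 27.0% of 33469 rat promoters. The word CCNCNCCC, of the kind bound by Klf1 and by other factors of its family, was found in 4 of the 7, against 42.8% of all promoters, and overlapping matches were counted. Sptb and Epor held both kinds, as did 7.57% of all promoters. The following 4 windows are those in which a GATA word lay closest to the start (Klf1, Rhag), occurred more than once (Sptb) or stood beside CCNCNCCC (Sptb, Epor). Each is written 5′ to 3′ along the gene's strand with the GATA words on either strand in capitals.
Rhag, chr9:27594391-27594640, − strand: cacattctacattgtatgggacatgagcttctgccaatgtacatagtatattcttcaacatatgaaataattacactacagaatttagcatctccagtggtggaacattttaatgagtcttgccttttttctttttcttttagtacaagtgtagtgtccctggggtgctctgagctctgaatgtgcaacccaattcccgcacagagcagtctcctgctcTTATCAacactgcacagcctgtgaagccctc
Klf1, chr19:40158652-40158901, − strand: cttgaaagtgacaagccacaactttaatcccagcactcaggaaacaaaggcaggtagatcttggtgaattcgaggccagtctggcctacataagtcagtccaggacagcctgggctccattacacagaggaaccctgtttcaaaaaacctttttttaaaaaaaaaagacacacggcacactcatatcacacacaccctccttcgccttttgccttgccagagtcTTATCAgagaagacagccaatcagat
Sptb, chr6:101170279-101170528, − strand: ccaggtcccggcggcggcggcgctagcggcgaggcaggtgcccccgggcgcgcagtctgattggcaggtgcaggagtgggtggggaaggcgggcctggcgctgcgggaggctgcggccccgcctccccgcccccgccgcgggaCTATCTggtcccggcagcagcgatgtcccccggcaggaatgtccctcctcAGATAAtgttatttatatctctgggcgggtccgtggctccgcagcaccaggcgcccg
Epor, chr8:28770323-28770572, − strand: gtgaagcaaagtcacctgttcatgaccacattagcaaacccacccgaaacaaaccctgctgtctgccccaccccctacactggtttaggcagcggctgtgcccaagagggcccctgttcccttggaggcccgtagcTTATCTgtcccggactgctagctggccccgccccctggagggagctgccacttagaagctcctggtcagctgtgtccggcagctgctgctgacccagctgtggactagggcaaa
The words began 31 bases before the start in Rhag, 26 before it in Klf1, 107 and 57 before it in Sptb and 114 before it in Epor. The window of Epb42 held 1 such word 82 bases before its start, while those of Tmcc2 and Gata1 held none and had 2 and 3 matches to CCNCNCCC. A match describes letters in this window and no more.

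Slc4a1 encodes band 3, the anion exchanger that carries chloride and bicarbonate across the red cell membrane. It is listed as ENSRNOG00000020951 on chromosome 10 from 90296141 to 90312386, − strand, in the table's own coordinates, for which no build is named here. Slc4a1 stood at 156, 587 and 113 FPKM in SYT, 211, 436 and 481 in YJT, 371, 481 and 572 in YJZYT, 346, 74.8 and 193.5 in Model and 531, 211 and 359 in Blank. SYT replicate 2 was the highest of the 15 libraries and Model replicate 2 the lowest. All 3 YJZYT libraries were above all 3 Model libraries, by a margin of 371 against 346 FPKM at the nearest pair, whereas SYT, YJT and Blank each overlapped Model. Group means were 285 ± 262 FPKM in SYT, 376 ± 145 in YJT, 475 ± 101 in YJZYT, 205 ± 136 in Model and 367 ± 161 in Blank (SD, n = 3 each).

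Rhag encodes the Rh-associated glycoprotein, an ammonium and gas channel that forms the core of the Rh complex (ENSRNOG00000050121, chromosome 9, 23465197 to 23493081, − strand). It stood at 26.8, 108 and 16.7 FPKM in SYT, 38.1, 87.5 and 98.0 in YJT, 75.9, 109 and 121 in YJZYT, 71.2, 17.7 and 36.2 in Model and 100.01, 45.8 and 81.1 in Blank. SYT replicate 3 was the lowest library and YJZYT replicate 3 the highest. Here too the YJZYT libraries lay above the Model libraries, while SYT, YJT and Blank each overlapped Model.

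The scaffold genes were Ank1, Sptb and Epb42. Ank1 encodes the ankyrin that anchors the spectrin network to band 3 (ENSRNOG00000018241, chromosome 16, 73681422 to 73827488, − strand), and stood at 11.1, 67.3 and 10.3 FPKM in SYT, 21.8, 40.9 and 57.9 in YJT, 40.9, 53.2 and 62.4 in YJZYT, 41.5, 6.38 and 20.8 in Model and 59.5, 21.1 and 42.4 in Blank. Its highest library, SYT replicate 2, exceeded its lowest, Model replicate 2, by 10.5 times, the widest range of the 9 genes. Sptb encodes the beta spectrin of the red cell (ENSRNOG00000006911, chromosome 6, 99659651 to 99783047, − strand), and stood at 19.7, 111 and 19.1 FPKM in SYT, 38.7, 70.9 and 88.1 in YJT, 60.3, 82.0 and 102.5 in YJZYT, 72.4, 11.0 and 38.2 in Model and 99.0, 33.8 and 61.6 in Blank. The same 2 libraries were its extremes. YJZYT replicate 1 lay between Model libraries for both genes. Epb42 encodes protein 4.2, which binds band 3 and ankyrin (ENSRNOG00000011649, chromosome 3, 112965653 to 112985318, − strand), and stood at 24.9, 72.8 and 13.1 FPKM in SYT, 32.4, 59.0 and 66.6 in YJT, 48.1, 71.9 and 91.5 in YJZYT, 47.7, 17.1 and 25.6 in Model and 69.4, 29.8 and 48.6 in Blank. Its nearest YJZYT and Model libraries were 48.1 and 47.7 FPKM, so those groups were barely apart.

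Tmcc2 encodes a membrane protein of the endoplasmic reticulum with coiled-coil regions (ENSRNOG00000000033, chromosome 13, 49132667 to 49169918, − strand). It stood at 72.3, 211 and 119 FPKM in SYT, 168, 145 and 317 in YJT, 193, 303 and 249 in YJZYT, 259, 79.2 and 72.8 in Model and 374, 61.4 and 222 in Blank. Both extremes were Blank libraries, replicate 1 at the top and replicate 2 at the bottom, so every other group lay inside the range of Blank. It was the one gene of the 9 whose lowest group mean was SYT, at 134 ± 70.6 FPKM, against 137 ± 106 in Model (SD, n = 3 each).

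Of the regulators, Gata1 encodes the zinc finger factor needed for red cell and platelet formation (ENSRNOG00000047663, chromosome X, 15273933 to 15281759, + strand). Gata1 stood at 10.4, 26.1 and 5.56 FPKM in SYT, 13.3, 25.8 and 26.6 in YJT, 21.2, 26.9 and 34.96 in YJZYT, 20.7, 5.74 and 9.74 in Model and 26.4, 14.4 and 19.9 in Blank. Klf1 encodes the erythroid Krüppel-like factor that activates adult beta-globin (ENSRNOG00000003443, chromosome 19, 26016382 to 26019553, + strand), and stood at 34.4, 107 and 23.6 FPKM in SYT, 46.2, 93.4 and 105 in YJT, 77.5, 115 and 135 in YJZYT, 70.3, 28.2 and 40.9 in Model and 96.2, 43.3 and 68.7 in Blank. For both factors SYT replicates 1 and 3 and Model replicates 2 and 3 were low and YJZYT replicate 3 was highest. Epor encodes the erythropoietin receptor (ENSRNOG00000012619, chromosome 8, 22969745 to 22974321, − strand), and stood at 16.8, 40.5 and 7.92 FPKM in SYT, 28.6, 47.3 and 44.2 in YJT, 33.1, 34.9 and 50.1 in YJZYT, 31.7, 10.1 and 16.9 in Model and 33.5, 23.1 and 22.2 in Blank. It differed from the other 8 genes in having its highest group mean in YJT, at 40.0 ± 10.03 FPKM, against 39.4 ± 9.35 in YJZYT, 21.7 ± 16.9 in SYT, 19.6 ± 11.0 in Model and 26.2 ± 6.30 in Blank (SD, n = 3 each).

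**Figure D1:**
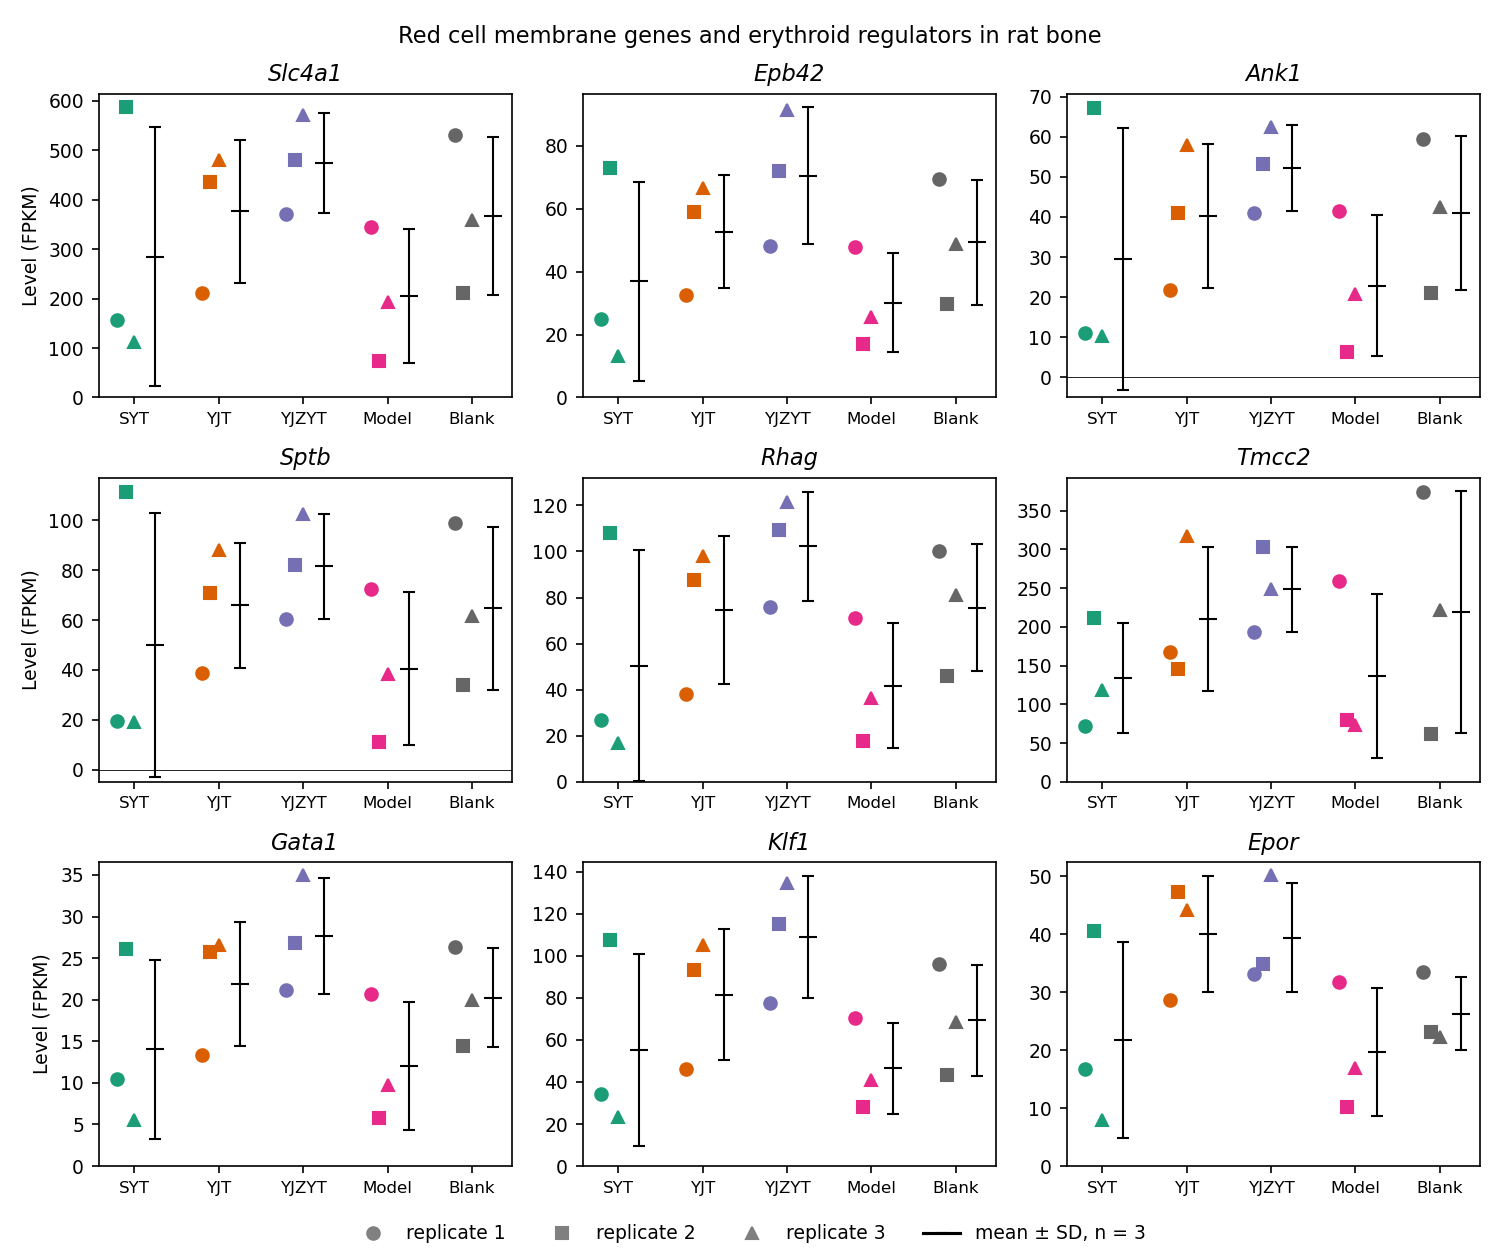
Level of each gene in FPKM (vertical axes, linear) in the 15 libraries by group, with bars for the mean ± SD of 3 libraries, which reach below 0 for Ank1 and Sptb in SYT. SYT replicate 2 sits far above the other SYT libraries in most panels, with Slc4a1 at 587 against 156 and 113 FPKM.

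On the FPKM scale, which divides by transcript length, Slc4a1 had the highest mean over the 15 libraries at 342 FPKM and was followed by Tmcc2 at 189.7 FPKM. Klf1 at 72.4, Rhag at 68.9 and Sptb at 60.6 FPKM came next, then Epb42 at 47.9, Ank1 at 37.2, Epor at 29.4 and Gata1 at 19.2 FPKM. Slc4a1 exceeded Tmcc2 in 13 of 15 libraries. Klf1 exceeded Rhag in 10 of 15, Rhag exceeded Sptb in 10 of 15 and Ank1 exceeded Epor in 10 of 15, so these neighbours changed places between libraries. Tmcc2 was above Klf1, Epb42 above Ank1, and Epor above Gata1 in all 15. The place of Gata1 is uncertain, since its sum with LOC108348091 averaged 39.0 FPKM, above the means of Epor and Ank1. The highest library exceeded the lowest by 5.71 times for Klf1 up to 10.5 times for Ank1. The SD within groups, on the log2 scale of library-size-scaled counts (CPM) after TMM scaling, was 0.69 to 0.99, against an SD between the 5 group means of 0.49 to 0.67.

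The comparison of YJZYT with Model sets a treated ovariectomized group against the ovariectomized group without a named treatment. Mean levels were 475 against 205 FPKM for Slc4a1, 102 against 41.7 FPKM for Rhag, 109 against 46.5 FPKM for Klf1 and 27.7 against 12.0 FPKM for Gata1. The log2 fold changes of the 9 genes ran from 1.02 (SE 0.59) for Tmcc2 to 1.46 (SE 0.63) for Rhag, with a median of 1.37, beside a median of −0.07 over all genes tested. By edgeR's quasi-likelihood test with Benjamini-Hochberg adjustment over 17657 genes, 0 of the 9 passed the threshold of 0.05, and neither did any other gene (0%). Their adjusted p ran from 0.638 for Klf1, Gata1 and Epb42 to 0.742 for Sptb. DESeq2 and limma also called 0 of the 9. At an unadjusted p under 0.05, edgeR listed 6 of the 9 genes and 1287 of the 17657. Those 6 genes, Slc4a1, Epb42, Rhag, Gata1, Klf1 and Epor, were also at least 2-fold higher in YJZYT, as were 1.63% of all genes. That count came to 0 without YJZYT replicate 3, 0 without Model replicate 2, 1 without Model replicate 3 and 4 without YJZYT replicate 2, with 0.914% to 1.45% of all genes then listed as higher. It came to 9 without Model replicate 1, in which case the share of all genes was 3.49% and the median log2 fold change of the 9 was 1.95.

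On TMM-scaled CPM all 3 YJZYT libraries lay above all 3 Model libraries for 7 of the 9 genes, those other than Sptb and Tmcc2, beside 7.35% of all genes tested. In FPKM this held for 6 of the 9, beside 4.09% of all genes. The difference was Ank1, which stood at 40.9 FPKM in YJZYT replicate 1 and at 41.5 FPKM in Model replicate 1. Model replicate 1 was the highest Model library for every gene, and without it YJZYT lay wholly above Model for all 9, beside 13.6% of all genes.

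YJT against Model gave log2 fold changes above 0 for all 9 genes. Mean levels were 376 against 205 FPKM for Slc4a1, 81.6 against 46.5 FPKM for Klf1 and 40.0 against 19.6 FPKM for Epor. The log2 fold changes ran from 0.74 (SE 0.59) for Tmcc2 to 1.21 (SE 0.50) for Epor, with a median of 0.97, beside −0.02 over all genes tested. None of the 9 genes or of the 17657 passed edgeR's test (0%), and DESeq2 and limma called 0 of the 9. The adjusted p of Epor was 0.746 and the others ran up to 0.838. Epor was the only one of the 9 with an unadjusted p under 0.05 (0.0313), as were 1162 of all genes, and it was more than 2-fold higher, as were 2.64% of all genes. Its YJT libraries lay above its Model libraries on TMM-scaled CPM, which held for 1 of the 9 genes and for 6.83% of all genes, but not in FPKM, with 28.6 FPKM in YJT replicate 1 and 31.7 FPKM in Model replicate 1. Without Model replicate 1, 8 of the 9 genes had an unadjusted p under 0.05 and were at least 2-fold higher, as were 4.48% of all genes. Without YJT replicate 1 there were 3 of the 9 and 2.48% of all genes, and without SYT replicate 2 or 3 there were 2 of the 9 and 2.59% or 2.74% of all genes. The count was 0 without Model replicate 2 or 3, beside 1.65% and 2.92% of all genes. It was also 0 without YJT replicate 2 or 3, beside 2.2% and 2.53% of all genes.

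SYT against Model had log2 fold changes from 0.20 (SE 0.59) for Tmcc2 to 0.71 (SE 0.61) for Slc4a1, with a median of 0.50, beside 0.02 over all genes tested. That median was 0.28 without scaling factors and 0.09 with limma on either FPKM scale. The adjusted p was 1 for all 9 genes, none of the 17657 passed (0%), and neither DESeq2 nor limma called any of the 9. At an unadjusted p under 0.05 there were 0 of the 9 and 558 of all genes. The groups overlapped for all 9 genes, where SYT lay wholly above Model for 3.24% of all genes. Without SYT replicate 2 all 9 log2 fold changes were below 0, from −0.77 for Ank1 to −0.23 for Tmcc2. Tmcc2 was also below 0 without Model replicate 2 (−0.06) or Model replicate 3 (−0.08). Without scaling factors the median over all genes moved by −0.25 and Tmcc2 came to −0.03, and its mean was also lower in SYT in FPKM.

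Model against Blank, ovariectomized against untreated bone, had log2 fold changes below 0 for all 9 genes, from −0.86 (SE 0.62) for Rhag to −0.43 (SE 0.49) for Epor. The median was −0.70, beside 0.02 over all genes tested. Means were 205 against 367 FPKM for Slc4a1, 41.7 against 75.7 FPKM for Rhag and 19.6 against 26.2 FPKM for Epor. None of the 9 passed edgeR's test, with adjusted p of 0.797 to 0.907, where 4 of 17657 genes did (0.0227%). DESeq2 called 0 of the 9, where it called 300 genes in all. With limma 0 of the 9 were called, where 41 genes were on log2(FPKM + 1) and 2 on log2(FPKM + 0.1). At an unadjusted p under 0.05 edgeR listed 0 of the 9 and 1446 of all genes. The groups overlapped for all 9, where Model lay wholly below Blank for 7.99% of all genes. Without Model replicate 1 the median was −1.44, and on TMM-scaled CPM Model lay wholly below Blank for 7 of the 9 genes, beside 16.0% of all genes. In that fit 4 of the 9 had an unadjusted p under 0.05 and were at least 2-fold lower, as were 4.84% of all genes. Without Blank replicate 2 Model lay wholly below Blank for 4 of the 9, beside 16.2% of all genes. Without Model replicate 2 the median was −0.41, and without Blank replicate 1 it was −0.44. The 3 treated groups share the Model libraries in their comparisons with it, and Model replicate 2 was the lowest Model library for all genes but Tmcc2.

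**Figure D2:**
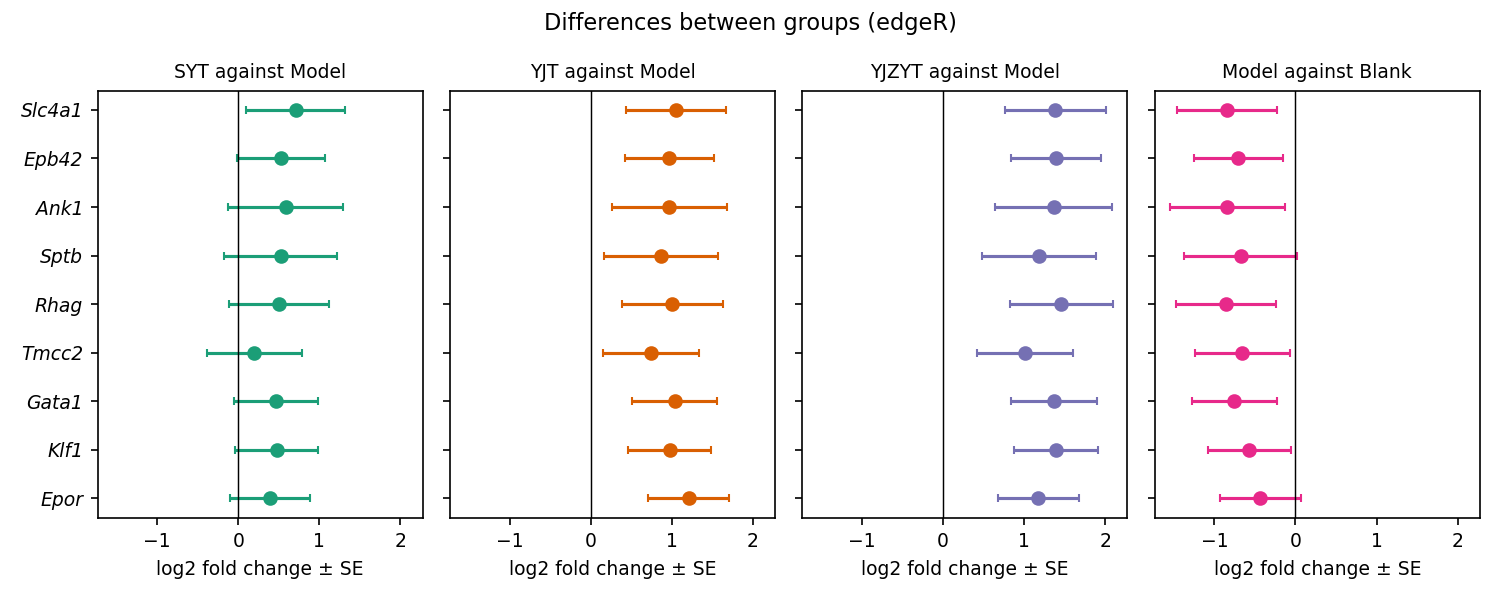
Fitted log2 fold change of each gene (horizontal axis, ± SE) in 4 comparisons, positive where the group named first is higher. Values against Model run from 0.20 to 0.71 for SYT, 0.74 to 1.21 for YJT and 1.02 to 1.46 for YJZYT, and Model against Blank lies between −0.86 and −0.43.

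Among the treated groups, YJT against SYT gave log2 fold changes of 0.34 for Slc4a1 to 0.81 for Epor, YJZYT against SYT 0.66 for Sptb to 0.96 for Rhag, and YJZYT against YJT −0.03 for Epor to 0.45 for Rhag. The standard errors were 0.49 to 0.71, and each estimate lay within 2 standard errors of 0, which does not show the groups to be alike. None of the 9 passed edgeR's adjusted test in any of these 3 comparisons, and none of the 17657 did (0%). With all libraries none of the 9 had an unadjusted p under 0.05 in edgeR, where 538, 1607 and 1128 of all genes did in the order given. DESeq2 and limma called 0 of the 9 after adjustment. At an unadjusted p under 0.05 with a 2-fold difference, limma on log2(FPKM + 1) listed 5 of the 9 as higher in YJZYT than in SYT, beside 1.03% of all genes, and 1 of the 9 as higher in YJT than in SYT, beside 0.459%. The first 2 comparisons depended on single SYT libraries, replicates 2 and 3 among them. Without SYT replicate 2 all 9 genes were higher in every YJT and every YJZYT library than in the remaining SYT libraries. This was beside 10.7% of all genes for YJT and 13.9% for YJZYT. In that fit 8 of the 9 had an unadjusted p under 0.05 and were at least 2-fold higher in each comparison, beside 2.02% and 2.88% of all genes. With all libraries the groups overlapped for all 9 and YJT lay wholly above SYT for 3.36% of all genes and YJZYT for 5.14%. Without SYT replicate 2 the median log2 fold change was 1.32 for YJT and 1.71 for YJZYT against SYT, while without SYT replicate 3 these were 0.09 and 0.46. A single test of any difference among the 5 groups gave adjusted p of 0.743 for Epor to 0.880 for Sptb, with 4 of 17657 genes called (0.0227%), 0 of the 9 at an unadjusted p under 0.05 and 1361 of all genes. DESeq2 and limma called 0 of the 9 in it.

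The levels varied between the libraries of a group in a shared way. Over 15 libraries the 28 pairs of genes without Tmcc2 had Pearson's r of log2 CPM from 0.884 (Ank1 and Epor) to 0.995 (Ank1 and Sptb), with a median of 0.966, and a median Spearman's rho of 0.964. After each group's mean was taken out the median r was 0.964, so these pairs varied together within groups. Without Model replicate 2 and SYT replicate 3, the 2 libraries farthest from the median, the lowest r of these pairs was 0.777 and the median 0.960. The 8 pairs with Tmcc2 had r of 0.643 (with Epor) to 0.800 (with Ank1), with a median of 0.773, a median rho of 0.745 and a median r of 0.663 after group means were removed. These values describe genes measured in the same libraries, which share depth and the makeup of the sample.

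**Figure D3:**
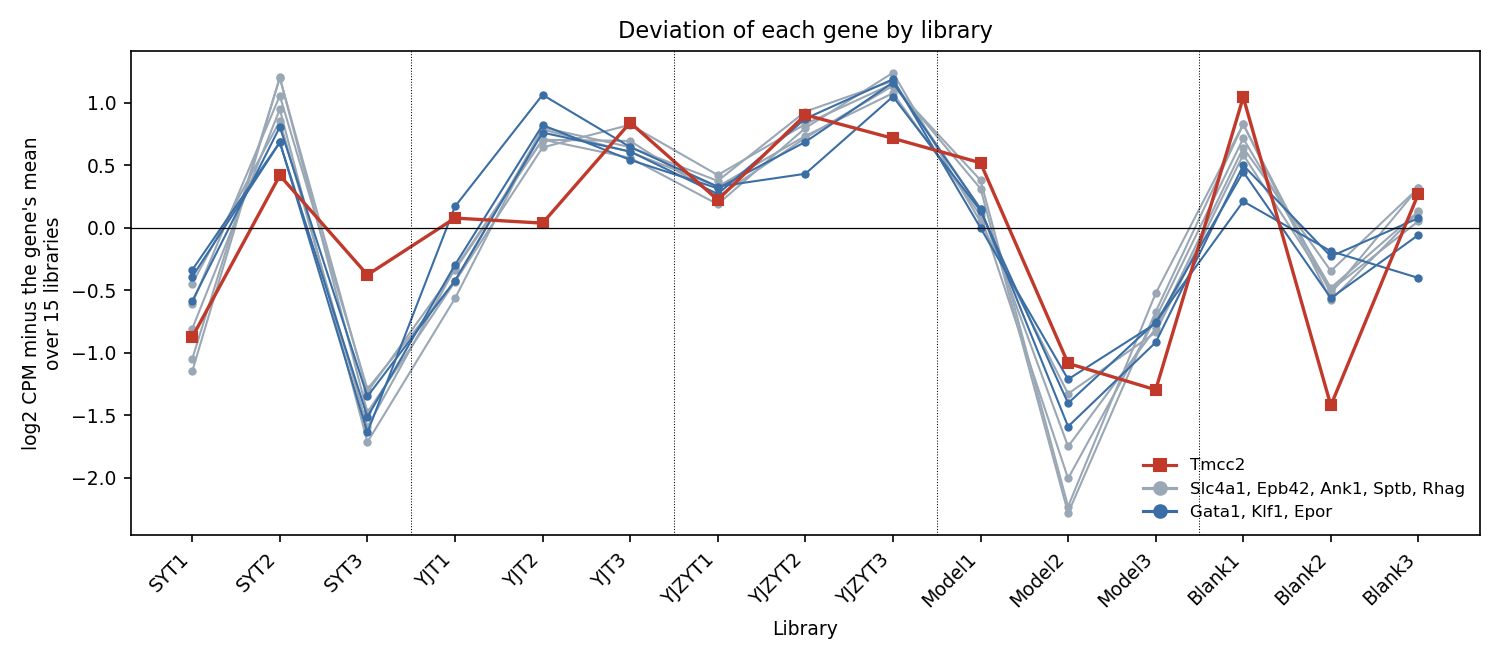
Deviation of each gene from its own mean over 15 libraries (vertical axis, log2 CPM) in each library, grouped by dotted lines. In SYT replicate 3 Tmcc2 was 0.38 below its mean while the other 8 genes were 1.29 to 1.71 below theirs, and in Blank replicate 2 Tmcc2 was 1.42 below and the others 0.19 to 0.58 below.

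**Figure D4:**
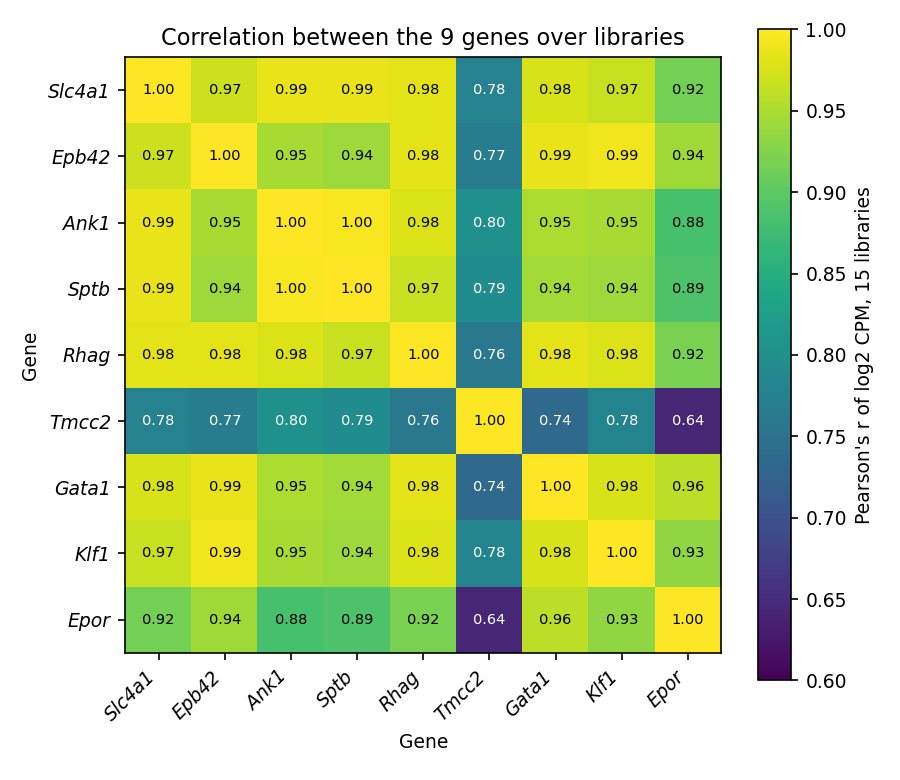
Pearson's r of log2 CPM over 15 libraries for every pair of the 9 genes (colour and printed value). The row of Tmcc2 holds values of 0.64 to 0.80, and the remaining off-diagonal cells lie between 0.88 and 0.995, which is printed rounded.

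Tmcc2 followed the others least closely. Its FPKM as a ratio to that of Slc4a1 was 0.464, 0.360 and 1.05 in SYT, 0.795, 0.333 and 0.658 in YJT, 0.520, 0.629 and 0.436 in YJZYT, 0.749, 1.06 and 0.376 in Model and 0.703, 0.292 and 0.617 in Blank. The highest ratios were those of Model replicate 2 and SYT replicate 3, the 2 libraries where Slc4a1 was lowest. The ratio of Sptb to Ank1, beta spectrin to its anchor, was the steadiest examined, at 1.45 to 1.86 in all libraries. Klf1 stood at 3.00 to 4.92 times Gata1 and Epor at 1.11 to 2.14 times Gata1. Both ratios leave out LOC108348091, which stood at 0.738 to 1.14 times Gata1, so they are uncertain. Model replicate 2 had the highest ratio of Klf1 to Slc4a1, 0.377 against 0.181 to 0.240 in the other 14 libraries, and of Epb42 to Slc4a1, 0.229 against 0.116 to 0.160.

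The genes whose pattern was most like each member were ranked by Pearson's r of log2 CPM over the 15 libraries among the 17656 other genes tested. Slc4a1 was followed most closely by Trak2 (r = 0.992), a mitochondrial transport adaptor, then by Add2 (0.990), which encodes beta adducin. Ank1 and Sptb were each other's closest gene (0.995). Next to Ank1 came Ermap (0.994), an erythroid membrane protein, and Btnl10 (0.992), and next to Sptb came Herc1 (0.991) and Ermap (0.988). Rhag was followed by LOC108348091 (0.994), Hemgn (0.992), an erythroid nuclear protein, and Ermap (0.988). Epb42 was followed by Klf1 (0.992), Grap2 (0.990) and Myo5c (0.989), and Klf1 by Abcb10 (0.993), a mitochondrial transporter of erythroid cells, Epb42 (0.992) and Grap2 (0.990). Gata1 was followed by Sec14l2 (0.992), LOC108348091 (0.987) and Epb42 (0.987). Epor was followed by Plek2 (0.980), Kel (0.976), which encodes the Kell blood group protein, and Slc38a5 (0.973). The closest genes to Tmcc2 were Neto2 (0.928), which averaged 1.299 FPKM, Khsrp (0.884) and Kcnk5 (0.880), none of which was among the 3 closest to any other member.

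Other genes of the same pathways were taken from lists, which were chosen with earlier results of these data known. None passed edgeR's adjusted test in any of the 7 comparisons. Over all genes tested, 7465 were higher and 10169 lower in YJZYT than in Model. Against Model these counts were 8515 and 9140 for YJT, and 9393 and 8251 for SYT. For Model against Blank they were 9124 and 8526. Of 22 other red cell membrane genes tested, 20 were higher and 2 lower in YJZYT than in Model, with a median log2 fold change of 1.08. In YJT 22 were higher than in Model (median 0.90), in SYT 19 were (median 0.47), and in Model 21 were lower than in Blank (median −0.43). Its most abundant members were Aqp1, a water channel, at 184 ± 118 FPKM in SYT, 199 ± 40.7 in YJT, 260.3 ± 71.5 in YJZYT, 137 ± 68.3 in Model and 292 ± 85.7 in Blank, then Stom, which encodes stomatin, and Rhd, a Rh protein (SD, n = 3 each). For Rhd the log2 fold change of YJZYT against Model was 1.495 (SE 0.53, adjusted p = 0.638), while for Stom it was 0.45 (SE 0.44, adjusted p = 0.837).

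Of 17 haemoglobin and heme genes tested, all 17 were higher in YJZYT than in Model (median 1.40), 17 in YJT (median 0.94) and 17 in SYT (median 0.61), and 14 were lower in Model than in Blank (median −0.59). Hba-a1, Hbb and Hba-a2, the most abundant of them, are near-identical globin copies or belong to families that have them, so their separate levels are uncertain. The 19 late erythroid genes were all higher than in Model in YJZYT (median 1.08), YJT (median 0.74) and SYT (median 0.39), and 18 were lower in Model than in Blank (median −0.42). Car2, a carbonic anhydrase, stood at 645 ± 371 FPKM in SYT, 955 ± 322 in YJT, 1374 ± 406 in YJZYT, 639 ± 165 in Model and 863 ± 190 in Blank (SD, n = 3 each). Car1 and Bpgm, the enzyme that makes the haemoglobin effector 2,3-bisphosphoglycerate, were the next most abundant of that list, with log2 fold changes of 1.42 (SE 0.50) and 0.76 (SE 0.44) in YJZYT against Model.

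Of 19 other erythroid transcription factors 15 were higher and 4 lower in YJZYT than in Model (median 0.55). In YJT 16 were higher and 3 lower than in Model (median 0.44), and in SYT 13 and 6 (median 0.14). In Model 9 were higher and 10 lower than in Blank (median −0.07). Nfe2, a regulator of globin genes, averaged 71.4 ± 39.7 FPKM in SYT, 105 ± 35.4 in YJT, 114 ± 32.7 in YJZYT, 72.2 ± 31.9 in Model and 84.2 ± 16.5 in Blank, and the cell cycle factors E2f2 and E2f4 were the next most abundant (SD, n = 3 each). Of 14 genes of erythropoietin signalling tested, 7 were higher and 7 lower in SYT than in Model (median −0.005). In YJT 8 were higher and 6 lower than in Model (median 0.06). In Model 4 were higher and 10 lower than in Blank (median −0.24). For YJZYT against Model 8 of these genes were higher and 6 lower (median 0.12). Among them Tfrc, the transferrin receptor that brings in iron, had a log2 fold change of 1.26 (SE 0.46, adjusted p = 0.638), Bcl2l1, which encodes the survival factor Bcl-xL, 0.52 (SE 0.27), and Ptpn6, a phosphatase that dampens the receptor, −0.17 (SE 0.23, adjusted p = 0.891).

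**Figure D5:**
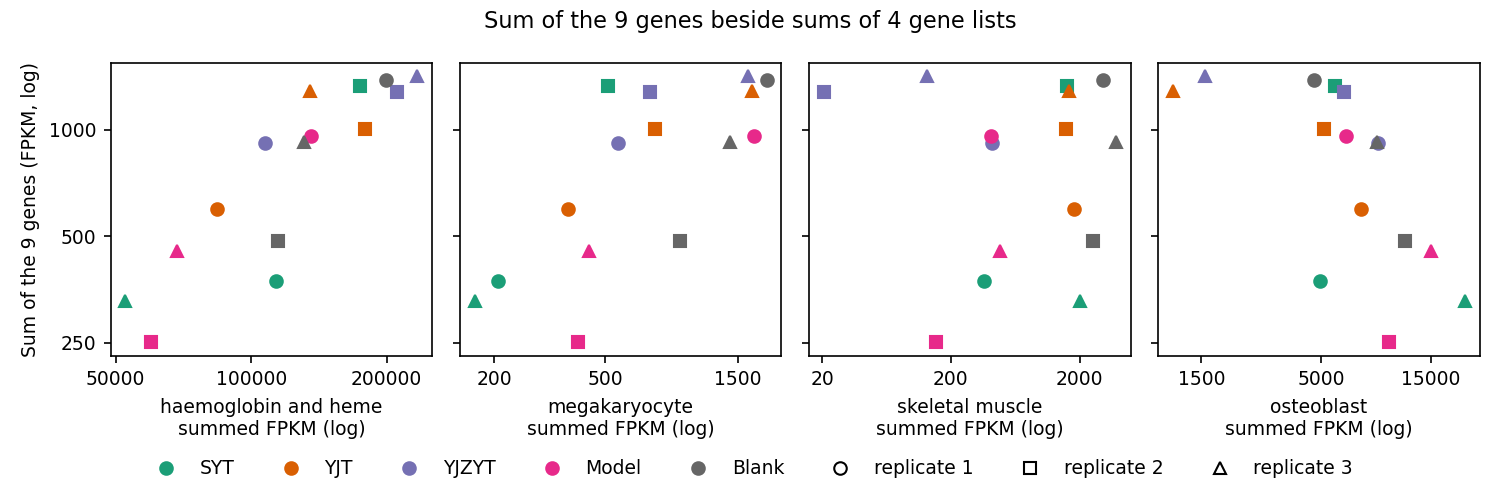
Summed FPKM of the 9 genes (vertical axis, log) against the summed FPKM of 4 gene lists (horizontal axes, log) in each of the 15 libraries, with colour for group and shape for replicate. The 9 genes lay highest in YJZYT replicate 3 at 1418 FPKM and lowest in Model replicate 2 at 250.2 FPKM, and the muscle sum of YJZYT ran from 20.6 to 414 FPKM.

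Markers of the other cells in bone also differed between libraries. All 11 megakaryocyte markers were detected in every library, and cells of that lineage also use Gata1. Their sum was 170.3 to 512 FPKM in SYT, 368 to 1677 in YJT, 554 to 1632 in YJZYT, 401 to 1712 in Model and 928 to 1898 in Blank. SYT replicate 2, with Gata1 at 26.1 FPKM, had the highest sum of SYT, 512 FPKM. Over the 15 libraries the log2 of the megakaryocyte sum had Pearson's r of 0.674 with the mean deviation of the 9 genes in log2 CPM. The same r was 0.832 for cell division markers, 0.399 for those of mast cells, basophils and eosinophils, and 0.207 for neutrophils. It was 0.0146 for marrow macrophages, −0.058 for skeletal muscle, −0.504 for endothelial cells, −0.621 for B cells and −0.689 for osteoblasts. The 9 markers of mast cells, basophils and eosinophils, which also use Gata1, summed to 55.6 to 263 FPKM in SYT, 92.2 to 223 in YJT, 174 to 277 in YJZYT, 91.9 to 210 in Model and 139.95 to 309.7 in Blank. Skeletal muscle has its own Ank1 transcripts, and its 7 matched markers summed to 359.99 to 2002 FPKM in SYT, 1565 to 1800.3 in YJT, 20.6 to 414 in YJZYT, 153 to 483 in Model and 2528 to 3830 in Blank. Ank1 stood at 53.2 FPKM in YJZYT replicate 2, where the muscle sum was 20.6 FPKM, the lowest of all libraries. The part of muscle in the level of Ank1 was not tested. The 7 matched osteoblast markers summed to 4931 to 21115 FPKM in SYT, 1127 to 7457 in YJT, 1561 to 8834 in YJZYT, 6419 to 14977 in Model and 4643 to 11604 in Blank. SYT replicate 3, low for 8 of the 9 genes, had the highest osteoblast sum, and YJT replicate 3 and YJZYT replicate 3, high for the 9 genes, had the lowest.

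The 8 cell division markers summed to 193 to 452 FPKM in SYT, 278 to 519 in YJT, 406 to 535 in YJZYT, 318 to 396 in Model and 304 to 482 in Blank, so that the YJZYT libraries lay above the Model libraries. Neutrophil markers summed to 3473 to 49663 FPKM in SYT, 15847 to 28108 in YJT, 15305 to 31986 in YJZYT, 9592 to 35409 in Model and 13528 to 20882 in Blank, and Ltf of that list was at 0 in 8 libraries. Of B cell markers the sums were 246 to 354 FPKM in SYT, 186 to 306 in YJT, 282 to 415 in YJZYT, 294 to 677 in Model and 291 to 404 in Blank. Marrow macrophage markers, of the cells around which red cells mature, summed to 47.5 to 85.3 FPKM in SYT, 48.1 to 78.8 in YJT, 74.2 to 93.5 in YJZYT, 91.9 to 117 in Model and 95.6 to 194 in Blank, and the 4 endothelial markers to 12.8 to 53.2 FPKM over all libraries. The part of each of these cell types in the levels of the 9 genes was not tested.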

How the data were processed

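Groups and replicate numbers come from the sample titles and labels. Per the labels' protocols, RNA was poly(A) selected, libraries were dUTP-stranded with unique molecular identifiers, and pairs were sequenced on an Illumina NovaSeq. Tools listed in the submitters' processing notes, without their roles, include StringTie 1.3.4d, HISAT2 2.0.4 and cutadapt 1.9, besides UMI-tools, edgeR and DESeq2. Neither build, annotation nor counting step is given there. Per the file headers, the deposited table pairs, for every gene and library, a whole-number count with an FPKM value. FPKM was computed by the authors and is used for levels, and counts were tested as deposited.

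edgeR 4.0.16 (R 4.3.3) was run with filterByExpr, TMM factors (0.818 to 1.13) and 1 robust quasi-likelihood fit of 15 libraries with a mean per group (10 residual degrees of freedom), with a biological coefficient of variation of 42.7%. Of 22468 genes, 17657 were tested and 4811 left out. All tests are two-sided with Benjamini-Hochberg adjustment over all genes tested, at a threshold of 0.05. A standard error is the size of the log2 fold change divided by the root of F. Alternatives used DESeq2 1.42.0, limma 3.58.1 on log2(FPKM + 1) and log2(FPKM + 0.1), other scalings and filters, only the groups compared, the replicate block, and each library left out. Correlations used log2 CPM with a prior count of 2.

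The members, the lists and the tests were chosen with earlier results of these data known. Named were all 9 members, the 3 genes with the highest mean FPKM of each of 5 pathway lists, any list gene past the threshold, and the 3 genes most correlated with each member, of which 1 is not reported here. Listed symbols not matched in the table included Mpp1, Hbb-b1, Col1a2, Myh1, Myh2, Ttn and Pecam1. At these depths counting error is small beside the spread between libraries.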

Additional observations from a re-analysis of the deposited data

How the results depend on the processing

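Over 1582 refits of single genes, 21 turned the direction and none brought a member past the adjusted threshold. None of the 226 refits turned in each of YJZYT against Model (0.75 to 2.16), YJT against Model (0.43 to 1.78), YJZYT against SYT (0.27 to 2.13) and Model against Blank (−1.64 to −0.09). At an unadjusted p under 0.05 with a 2-fold difference, edgeR with all libraries listed 6 members for YJZYT against Model, beside 1.63% of all genes. It listed 1 for YJT against Model, beside 2.64%, and 0 in the other comparisons. Of all 17657 genes it then listed 178 as higher and 509 as lower for Model against Blank, and 241 and 83 for SYT against Model. These counts were 133 and 137 for YJT against SYT, 137 and 762 for YJZYT against SYT, and 77 and 715 for YJZYT against YJT. limma on log2(FPKM + 1) listed 5 for YJZYT against SYT, beside 1.03% of all genes, and 1 for YJT against SYT, beside 0.459%. On log2(FPKM + 0.1) the counts were the same, beside 1.86% and 1.17%. Without SYT replicate 2 edgeR listed 8 in each, beside 2.88% and 2.02% of all genes. Without Model replicate 1 it listed 4 for Model against Blank, beside 4.84%. The 6 of YJZYT against Model became 3 without scaling factors, beside 1.06% of all genes, and 4 with the replicate block, beside 1.39%. The 1 of YJT against Model became 0 without scaling factors, beside 1.93% of all genes. It became 2 with DESeq2 or with only the groups compared, beside 2.59% and 2.76%. Without scaling factors, Tmcc2 was at −0.027 in SYT against Model, and limma on log2(FPKM + 0.1) put Epor at −0.0035 there. With one library left out at a time, SYT against Model ran from −0.27 to 1.33 for Slc4a1, −0.32 to 1.04 for Epb42, −0.77 to 1.36 for Ank1, −0.74 to 1.26 for Sptb, −0.59 to 1.14 for Rhag, −0.23 to 1.05 for Tmcc2, −0.24 to 1.11 for Gata1, −0.35 to 0.91 for Klf1 and −0.31 to 0.94 for Epor. YJT against SYT ran from −0.041 to 1.32 for Slc4a1, −0.021 to 1.74 for Ank1 and −0.044 to 1.604 for Sptb, and YJZYT against YJT from −0.29 to 0.21 for Epor. The cause of these turns was not tested. Gata1 with LOC108348091 added to it, chosen after seeing the data, gave 1.37 for YJZYT against Model, 0.99 for YJT, 0.40 for SYT and −0.79 for Model against Blank. Counts over all genes moved widely: DESeq2 called 300 genes for Model against Blank, 28 for SYT, 97 for YJT and 63 for YJZYT against Model, against 4, 0, 0 and 0 by edgeR. Without scaling factors the median over all genes moved by −0.14 for YJT and −0.15 for YJZYT against Model.

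Same-numbered libraries of different groups had deviations that correlated at −0.42 to 0.40 (median −0.02), over 0.1 in 9 of 30 pairs, and 4 of 15 libraries were closest to their own number. The labels name no shared litter, day or batch for a number, so the libraries were not paired. With the replicate block, 0 members passed in every comparison, 0 genes were called for Model against Blank, and Epor came to 0.011 in YJZYT against YJT.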
